A study of Homo sapiens with 8 samples.

Results

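NSD2, FGFR3 and DSG2 are 3 genes tied to the t(4;14) translocation of multiple myeloma, a cancer of plasma cells. They were chosen by symbol: every row that the platform annotation gives to one of the 3 genes was taken, which found 1 row each, so that the 3 genes stand among 14812 named genes, of which 11109 were tested. Expression was measured on 8 Affymetrix Human Gene 2.0 ST arrays, 1 with a knockdown of MMSET I and 1 control from each of the myeloma lines KMS11, KMS18, KMS34 and OPM2. All 8 cultures carry t(4;14) per the labels, so the controls share the translocation. The protocol, given alike for both conditions, describes lentiviral infection with 8 µg/mL polybrene, fresh medium after 24 h and collection of RNA after a further 48 h. The knockdown was by shRNA, and a treatment time of 72 h was stated for KMS11 alone. The construct of the control was not given in the sources used here. Each line is 1 established culture with 1 array per condition, so n = 4 lines for the knockdown. The knockdown p-values measure the spread between these lines, and a difference within 1 line has no test. Tests between lines take the control and knockdown arrays of a line as its replicates. Their p-values are set against the spread of the knockdown differences, and not against a spread between independent cultures of a line. No line without t(4;14) was on the arrays, and whether the levels below are raised by the translocation was not tested.

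In t(4;14) the immunoglobulin heavy chain locus breaks into the end of chromosome arm 4p between FGFR3 and NSD2, and its enhancers come to lie near both genes, on different derivative chromosomes. NSD2 (also MMSET or WHSC1) encodes a methyltransferase that dimethylates H3K36, and MMSET I is its short isoform, which lacks the catalytic SET domain. FGFR3 encodes a receptor tyrosine kinase for fibroblast growth factors that signals through the RAS and ERK kinases. DSG2 encodes desmoglein 2, a cadherin of the desmosomes that join epithelial and heart muscle cells. It lies on chromosome 18, outside the translocation, and is known as a gene with high expression in this myeloma subtype.

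The start regions of the 3 genes are shown to set the pair beside the breakpoint against DSG2, which lies elsewhere. They run from 250 bases before to 50 bases after the RefSeq start in GRCh38.p14, all on the plus strand, with NSD2 at chr4:1871143-1871442, FGFR3 at chr4:1793043-1793342 and DSG2 at chr18:31497927-31498226. Capitals mark GC boxes (GGGCGG or CCGCCC), the CCAAT box (CCAAT or ATTGG) and an E2F motif (TTTCCCGC or GCGGGAAA).
NSD2: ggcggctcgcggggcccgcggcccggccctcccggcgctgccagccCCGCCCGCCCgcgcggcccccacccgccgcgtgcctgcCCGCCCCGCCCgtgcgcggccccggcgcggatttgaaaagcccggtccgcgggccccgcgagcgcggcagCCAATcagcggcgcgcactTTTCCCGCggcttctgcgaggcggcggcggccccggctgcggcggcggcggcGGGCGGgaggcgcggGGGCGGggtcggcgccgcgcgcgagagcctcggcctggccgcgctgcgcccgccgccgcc
FGFR3: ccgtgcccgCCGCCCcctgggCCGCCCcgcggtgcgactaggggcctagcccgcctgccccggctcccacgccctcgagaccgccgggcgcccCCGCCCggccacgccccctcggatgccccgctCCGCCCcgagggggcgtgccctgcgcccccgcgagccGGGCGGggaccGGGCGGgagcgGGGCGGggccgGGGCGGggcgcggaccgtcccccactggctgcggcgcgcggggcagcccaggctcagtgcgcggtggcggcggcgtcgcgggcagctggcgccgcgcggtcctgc
DSG2: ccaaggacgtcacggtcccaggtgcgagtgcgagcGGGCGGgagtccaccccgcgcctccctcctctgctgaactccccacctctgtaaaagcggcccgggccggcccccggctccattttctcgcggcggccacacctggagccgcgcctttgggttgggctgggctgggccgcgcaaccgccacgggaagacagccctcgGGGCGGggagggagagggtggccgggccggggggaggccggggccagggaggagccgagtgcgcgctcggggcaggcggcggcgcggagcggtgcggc
The NSD2 region held 6 GC boxes, 1 CCAAT box and 1 E2F motif, the FGFR3 region 8 GC boxes and the DSG2 region 2. In the NSD2 region some GC boxes overlap. Both strands were searched. Of 35116 regions of this length in the RefSeq table, 44.95% held a GC box, 34.61% a CCAAT box and 1.629% the E2F motif. The TATA box letters (TATAAA or TTTATA), present in 11.53% of all regions, were not found in these 3. GC content was 86.67% for NSD2, 86.33% for FGFR3 and 76.67% for DSG2, against a median of 58.67%. These matches describe the reference sequence. The arrays do not show from which start a transcript came.

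The labelled cell type was checked first. Of 10 plasma cell markers 7 had a row and all 7 were tested. The mean intensity of a line lay between 2440 and 4556 for the plasma cell transcription factor gene IRF4, and between 857 and 1082 for the syndecan gene SDC1. XBP1, SLAMF7 and MZB1 had line means between 782 and 2711. CD38 was at 64.9 in KMS11, against 168 to 390 in the other lines, and CD27 was low in every line, at 64.3 to 85.6. Of 9 T and NK cell markers 5 had a row and were tested, with line means of 45.9 to 136, CD8A the highest. Of 9 myeloid markers 7 had a row, of which CD14, LYZ and S100A8 fell under the brightness filter, while S100A9 reached 145 and CD68 117. Of 7 B cell markers 4 had a row, and these 4 differed between lines, with CR2 at up to 189 and BCL6 at up to 176. Of 10 epithelial, stromal and endothelial markers 5 had a row. The epithelial adhesion gene EPCAM had a line mean of 2157 in KMS18 and 514 in KMS11, against 59.5 in KMS34 and 63.9 in OPM2. KRT8, KRT18, KRT19 and VWF lay between 50.8 and 321 and did not differ between lines past the threshold. The summed level of the list was 2727 in KMS18 and 1014 in KMS11, against 570 in KMS34 and 589 in OPM2. Its part in the line differences below was not tested.

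**Figure D1:**
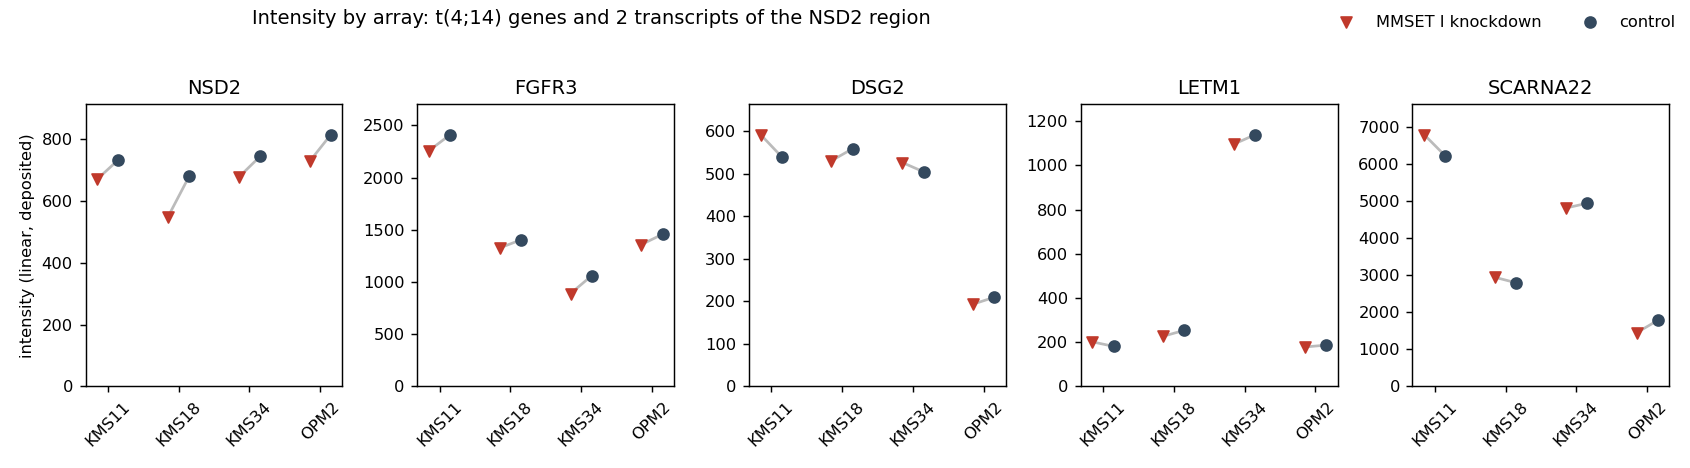
Deposited linear intensity (y axes, from 0, scaled per gene) in each line (x axes). Triangles are MMSET I knockdown arrays and circles control arrays, 1 each per line, joined by a line. NSD2 spans 549 to 814 over all arrays, FGFR3 stands highest in KMS11, DSG2 lowest in OPM2, LETM1 highest in KMS34 and SCARNA22 spans 1444 to 6782.

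NSD2, the targeted gene, had an intensity of 670 (KMS11), 549 (KMS18), 677 (KMS34) and 728 (OPM2) with the knockdown, against 733, 680, 744 and 814 in the control arrays of the same lines. Each knockdown array lay below its own control, while the ranges of the groups overlapped. The mean was 656 ± 75.9 with the knockdown and 743 ± 55.2 in controls (SD, n = 4 each). The log2 difference was -0.18 with a 95% interval of -0.32 to -0.05, that is -12.0% with an interval of -20.1% to -3.16%. It did not pass over all genes (limma, adjusted p = 0.472), and 310 genes of 11109 had a p as small or smaller. The same fit called 0.117% of all tested genes in either direction, 0.099% lower and 0.018% higher. In 8.76% of tested genes the knockdown array was the lower one in 4 of 4 lines, so this pattern alone does not set NSD2 apart. The row is annotated to the gene NSD2, and where its probes lie in the gene was not examined. It therefore cannot be read for MMSET I apart from the long isoforms. In these bulk cultures, fewer cells with the transcript and less RNA per cell cannot be told apart.

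FGFR3 had 2256 (KMS11), 1326 (KMS18), 889 (KMS34) and 1358 (OPM2) with the knockdown, against 2410, 1403, 1061 and 1457 in the control arrays. The knockdown array was again the lower one in 4 of 4 lines. The mean was 1457 ± 574 with the knockdown and 1583 ± 579 in controls (SD, n = 4 each). The line differences were -16.2% for KMS34, -6.82% for OPM2, -6.39% for KMS11 and -5.50% for KMS18. The mean log2 difference was -0.13, with a 95% interval of -0.27 to 0.005 (limma, adjusted p = 0.610). KMS34 gave the largest of these differences, and without it the mean was -0.09.

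DSG2 had 593 (KMS11), 531 (KMS18), 527 (KMS34) and 194 (OPM2) with the knockdown, against 540, 560, 505 and 210 in the control arrays. The knockdown array was higher in KMS11 and KMS34 and lower in KMS18 and OPM2. The mean was 461 ± 181 with the knockdown and 454 ± 164 in controls (SD, n = 4 each). The mean difference was 0.0643%, with a 95% interval of -9.53% to 10.7% (limma, adjusted p = 0.999). The interval bounds what 4 lines could show for DSG2. Exact two-sided permutation tests within lines gave p = 0.125 for NSD2, 0.125 for FGFR3 and 1 for DSG2, and 0.125 is the smallest p that 4 lines allow. In comparison, GLO1, the glyoxalase gene named in the series title, fell by 40.8% (limma, adjusted p = 0.00142), with an interval of -46.7% to -34.4% that does not overlap those of the 3 genes. Its exact permutation p was 0.125 as well.

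**Figure D2:**
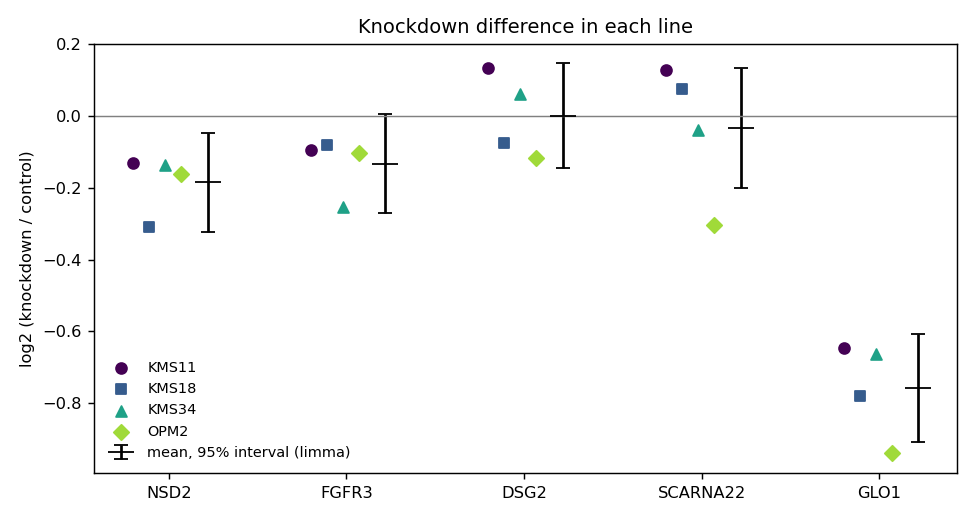
Log2 ratio of the knockdown over the control array (y axis) for 5 genes (x axis), with 1 symbol per line and, beside them, the mean over 4 lines with its 95% interval from limma. NSD2 and FGFR3 lie below 0 in 4 lines, DSG2 and SCARNA22 on both sides of 0, and GLO1 below -0.6 in 4 lines.

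FGFR3 was highest in KMS11 and lowest in KMS34. It had a mean of 2332 in KMS11, 1406 in OPM2, 1364 in KMS18 and 971 in KMS34, a 2.40-fold range (limma F test, adjusted p = 7.8e-07), where 75.7% of all tested genes passed the same test. A share of 11.8% of tested genes had a wider range between lines. KMS11 stood above OPM2 by 1.66-fold (95% interval 1.45 to 1.90, adjusted p = 2.87e-05) and KMS18 above KMS34 by 1.40-fold (1.23 to 1.61, adjusted p = 6.76e-04). OPM2 and KMS18, neighbours in that order, were not told apart, with KMS18 at 0.970 times OPM2 (0.847 to 1.11, adjusted p = 0.715). These p-values were adjusted over all genes and the 6 pairs of lines together. At that threshold 55.3% of tested genes differed between KMS11 and KMS18, 43.1% between KMS11 and KMS34, 53.5% between KMS11 and OPM2, 47.7% between KMS18 and KMS34, 49.7% between KMS34 and OPM2 and 40.2% between KMS18 and OPM2.

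DSG2 split the lines in another way. Its mean was 566 in KMS11, 545 in KMS18 and 516 in KMS34, and 202 in OPM2 (limma F test, adjusted p = 7.33e-08). KMS34, the lowest of the first 3, stood 2.56-fold above OPM2 (95% interval 2.22 to 2.95, adjusted p = 2.13e-07). The first 3 lines were not told apart on the deposited scale. KMS11 was 1.04 times KMS18 (0.899 to 1.20, adjusted p = 0.676) and KMS18 1.06 times KMS34 (0.916 to 1.22, adjusted p = 0.518). With quantile normalization KMS18 was called above KMS34 by 0.26 log2 units (limma, adjusted p = 0.0427), and KMS11 minus KMS18 turned to -0.14. Without OPM2 the range on the deposited scale was 0.13 log2 units and did not pass (limma F test, adjusted p = 0.430). The B cell marker CR2 was also lowest in OPM2, with a mean of 189 in KMS11, 146 in KMS18 and 145 in KMS34, against 37.0 in OPM2. The other B cell markers with a row were not lowest in OPM2. PAX5 was lowest in KMS11, at 59.8 against 78.9 in OPM2. BCL6 was lowest in KMS18, at 48.1 against 53.7 in OPM2, and CD22 in KMS34, at 46.1 against 51.9 in OPM2. The summed level of the 4 B cell markers was 393 in KMS11, 340 in KMS18 and 436 in KMS34, against 221 in OPM2. Their part in the DSG2 result was not tested. The antisense RNA of the locus, DSG2-AS1, had intensities of 39.7 to 47.4 on the 8 arrays and fell under the brightness filter.

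NSD2 differed least between lines. Its mean was 770 in OPM2, 709 in KMS34, 701 in KMS11 and 611 in KMS18, a 1.26-fold range, and 72.2% of tested genes had a wider one. The F test passed (limma, adjusted p = 0.0294), and not without KMS18 (adjusted p = 0.331) or without OPM2 (0.100). KMS18 was at 0.793 times OPM2 (95% interval 0.693 to 0.909, adjusted p = 0.00864), and this was the 1 pair of 6 that passed. The neighbours in that order were not told apart, with KMS34 at 0.922 times OPM2 (0.805 to 1.06), KMS11 at 0.988 times KMS34 (0.863 to 1.13) and KMS11 at 1.15 times KMS18 (1.002 to 1.31, adjusted p = 0.0877). Line medians over all rows differed by up to 0.11 log2 units on the deposited scale, beside a range of 0.33 for NSD2, 1.26 for FGFR3 and 1.49 for DSG2. With array medians centred KMS18 was also called below KMS11 and KMS34.

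SCARNA22 (also ACA11), a small Cajal body RNA that lies within NSD2, had another order of lines than NSD2. It is outside the rule for named genes and was added because of its place in the gene. Its intensity was 6782 (KMS11), 2940 (KMS18), 4805 (KMS34) and 1444 (OPM2) with the knockdown, against 6206, 2791, 4933 and 1782 in the control arrays. The line means spanned 4.04-fold between KMS11 and OPM2 (95% interval 3.43 to 4.77, adjusted p = 2.27e-08), and each of the 6 pairs of lines differed (largest adjusted p = 0.00742). OPM2 thus had the highest mean of NSD2 and the lowest of SCARNA22. For the knockdown SCARNA22 had a log2 difference of -0.03 (-0.20 to 0.13, limma, adjusted p = 0.934), higher in KMS11 and KMS18 and lower in KMS34 and OPM2.

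The neighbour LETM1 was high in 1 line. LETM1, which encodes an ion exchange protein of the inner mitochondrial membrane, lies between FGFR3 and NSD2. It had 202 (KMS11), 227 (KMS18), 1096 (KMS34) and 178 (OPM2) with the knockdown, against 181, 254, 1139 and 187 in the control arrays. KMS34 lay 6.12-fold above OPM2 (95% interval 5.29 to 7.08, adjusted p = 8.89e-10), and KMS11 and KMS18 were at 0.171 and 0.215 times KMS34. In KMS34 the neighbour on one side, FGFR3, was at its lowest of the 4 lines, while NSD2 on the other side was not told apart from KMS11 or OPM2.

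**Figure D3:**
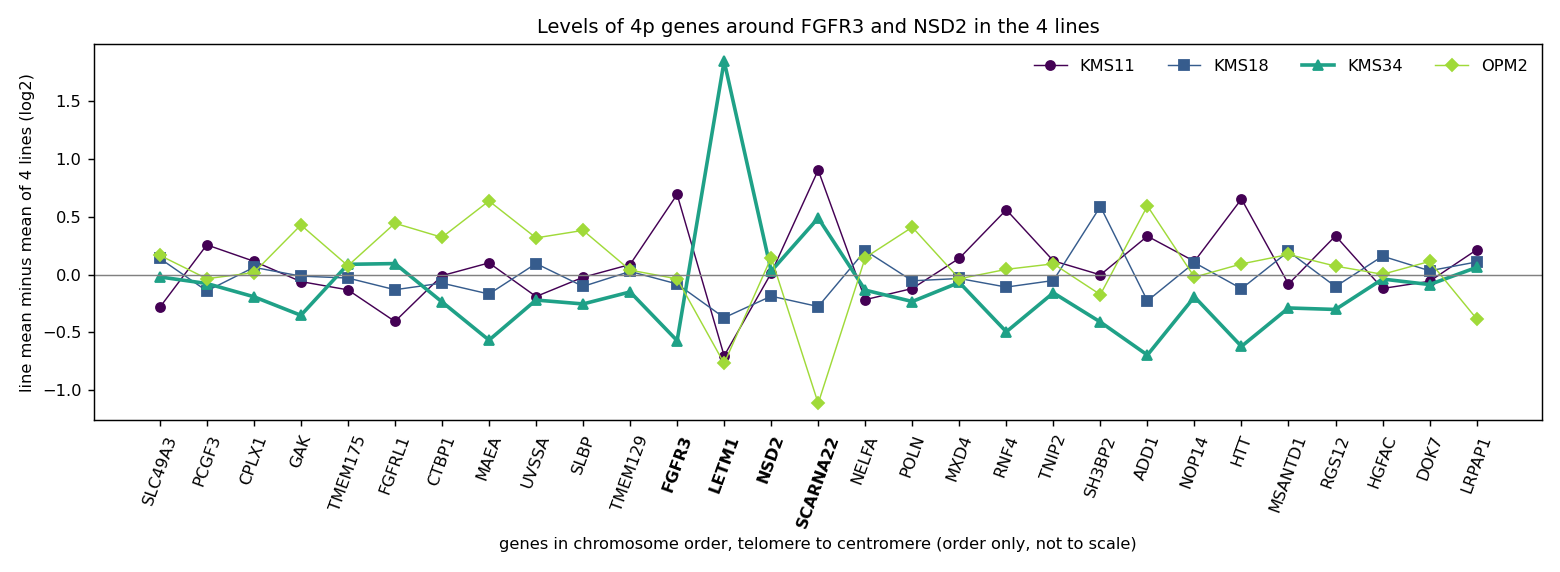
Mean log2 level of each line minus the mean of the 4 lines (y axis) for tested genes of the end of 4p in chromosome order from the telomere (x axis, not to scale). LETM1 in KMS34 stands at 1.84, and most other genes have their lowest point in KMS34.

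KMS34 also had the lowest level of most other genes along this stretch, a pattern counted after its values were seen. Of 46 listed neighbours of FGFR3 and NSD2, 28 had a named row and 26 were tested. Leaving out LETM1, 18 of 25 had their lowest line mean in KMS34, against 21.4% of all tested genes. The count was 7 of 11 on the telomere side of FGFR3 and 11 of 14 on the centromere side of NSD2. It was 18 with quantile normalization, 17 with array medians centred, and 16 in the knockdown arrays alone as well as in the control arrays alone. KMS34 lay below each of the other 3 lines, with every pair past the threshold, for GAK, a kinase of clathrin uncoating, MAEA, a subunit of a ubiquitin ligase, RNF4, a ubiquitin ligase for SUMO-modified proteins, ADD1, the adducin gene of the membrane skeleton, and the huntingtin gene HTT. GAK was named for this count alone. That is 5 of 25, against 4.33% of all tested genes. ADD1 averaged 87.8 in KMS34, against 122 in KMS18, 179 in KMS11 and 215 in OPM2, and HTT 178 in KMS34, against 251 in KMS18, 292 in OPM2 and 430 in KMS11.

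For the knockdown 0 of the 26 tested 4p genes passed (limma), 0 had an unadjusted p under 0.05, and 13 had a mean below 0 and 13 above, where 51.6% of all tested genes lay below 0. Their median was -0.002, against -0.003 over all tested genes. RNF4 had a log2 difference of 0.11 (adjusted p = 0.691), ADD1 of 0.10 (0.729) and PCGF3, a Polycomb ring finger gene, of -0.10 (0.720).

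Ligands and receptors of the FGF family were set beside FGFR3. Of 28 genes 28 had a row and 20 were tested, with the receptor gene FGFR1 and the co-receptor gene KLB among those under the brightness filter. FGF2, which encodes basic fibroblast growth factor, a ligand of FGFR3, had 372 (KMS11), 167 (KMS18), 82.5 (KMS34) and 52.9 (OPM2) with the knockdown, against 304, 135, 68.3 and 47.4 in the control arrays. Its level followed the order KMS11, KMS18, KMS34, OPM2, and each of the 6 pairs of lines differed, with KMS11 6.71-fold above OPM2 (limma, adjusted p = 2.96e-10). The OPM2 values lay at the brightness limit of 46.7 and near the array medians of that line, and without detection calls this fold cannot be taken as exact. KMS11 had the highest mean of both FGFR3 and FGF2. Over the 20 tested genes of the list, however, KMS11 was highest for 4 and lowest for 12. The F test between lines passed for 12 of the 20, against 75.7% of all tested genes. FGFR2 averaged 172 in KMS11, against 57.6 to 61.2 in the other lines, and FGFR4 averaged 103 in KMS11, against 58.6 to 64.7 in the other lines. For both receptors KMS11 differed from each other line, and the other 3 were not told apart. The ligand gene FGF9 was lowest in KMS11, at 39.7 and so under the brightness limit, and highest in KMS34, at 153. FGFRL1, a receptor gene of this family that lacks the kinase domain and lies on the same arm as FGFR3, was highest in OPM2, at 175, and lowest in KMS11, at 97.2.

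With the knockdown 0 of these 20 genes passed (limma), with 3 higher and 1 lower at an unadjusted p under 0.05, a level that 4.26% of all tested genes passed upward and 4.15% downward. The log2 difference was 0.26 for FGF2 (SE 0.062, adjusted p = 0.257), 0.21 for FGFR2 (adjusted p = 0.447), 0.14 for the endocrine ligand gene FGF21 (0.593) and -0.16 for FGFR4 (0.593). FGF2, FGFR2, FGF21 and FGF10 were each higher in 4 of 4 knockdown arrays, a pattern that 8.29% of tested genes had, and FGFR4 and FGF9 lower in 4 of 4. Among the 104 tested genes of all partner and neighbour lists, FGF2 had the smallest adjusted p.

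**Figure D4:**
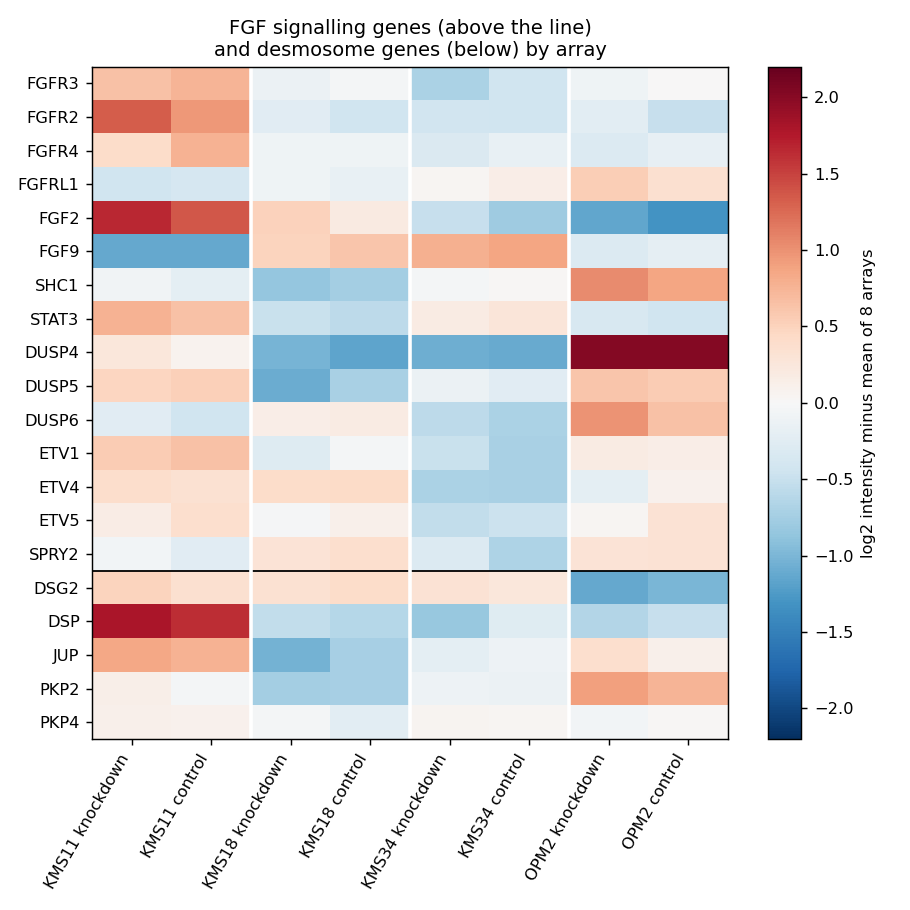
Log2 intensity minus the mean of the 8 arrays (colour) for genes of FGF signalling (above the black line) and of desmosomes (below), with knockdown and control arrays of each line side by side. FGFR3, FGFR2 and FGF2 are reddest in KMS11, DUSP4 in OPM2 and DSP in KMS11, while DSG2 is bluest in OPM2.

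Genes that carry the signal of FGF receptors differed between lines in 12 of 13 tested genes, against 75.7% of all. The adaptor gene SHC1 averaged 2921 in OPM2, against 1502 in KMS34, 1366 in KMS11 and 869 in KMS18, and STAT3 averaged 1123 in KMS11, against 478 to 803 in the others. For the knockdown 0 passed. MAP2K2, one of the genes for the kinases that activate ERK, had a log2 difference of 0.25 (limma, adjusted p = 0.297) and was higher in 4 of 4 lines, while its paralog MAP2K1 had -0.15 (0.585) and the adaptor gene GRB2 -0.15 (0.578), both lower in 4 of 4. The other 14 of the 27 listed genes were not analysed here.

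Genes that ERK induces had several orders of lines. DUSP4, which encodes a phosphatase that inactivates ERK, averaged 708 in OPM2, against 196 in KMS11, 82.4 in KMS18 and 82.4 in KMS34, and DUSP6, another ERK phosphatase gene, averaged 202 in OPM2, 128 in KMS18, 90.8 in KMS11 and 74.0 in KMS34. DUSP4 of KMS18 was at 0.116 times OPM2 (adjusted p = 1.43e-10), while FGFR3 of these lines was not told apart. ETV5, a transcription factor gene that FGF signals induce, was lowest in KMS34, at 48.2 and so near the brightness limit, where FGFR3 was lowest as well. Of 16 tested genes of the list 11 differed between lines, against 75.7% of all tested genes. Of the 16, 8 had their lowest mean in KMS34, against 21.4% of all tested genes. Among these 8 was DUSP4, nearly equal in KMS34 (82.40) and KMS18 (82.41). KMS11, the line with the highest FGFR3, was lowest for 6 of the 16 and highest for 4. The shares of all tested genes for KMS11 were not counted. With the knockdown 0 of 16 passed (limma) and 1 had an unadjusted p under 0.05, ETV5, with a log2 difference of -0.17 (adjusted p = 0.516), lower in 4 of 4 lines.

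Partners of NSD2 in histone methylation were measured as well. NSD1 and NSD3, the other members of its methyltransferase family, had log2 knockdown differences of 0.16 (limma, adjusted p = 0.565) and -0.16 (0.541), the first higher and the second lower in 4 of 4 lines. Of 4 tested H3K36 methyltransferase genes besides NSD2, NSD1 was the 1 higher and NSD3 the 1 lower at an unadjusted p under 0.05. Over all tested genes 4.26% were higher and 4.15% lower at that level. SETD2, which trimethylates H3K36, had 0.05 (0.870). Of 13 tested H3K36 demethylases and readers 0 passed, and 3 were lower at an unadjusted p under 0.05, against 4.15% of all tested genes. These were the demethylase gene KDM4B at -0.22 (adjusted p = 0.379), the H3K36 reader gene MTF2 at -0.22 (0.4004) and the reader gene PSIP1 at -0.16 (0.593). The list's median was -0.06. Of 5 tested genes of PRC2, the complex that methylates H3K27 and is opposed by H3K36 methylation, 0 passed, with SUZ12 at -0.15 (0.590) and EZH2 at -0.07 (0.815). SUZ12 was the 1 gene of these 5 with an unadjusted p under 0.05, and was lower in 4 of 4 lines. EZH2 averaged 728 in KMS34, 664 in OPM2, 557 in KMS11 and 459 in KMS18. SMYD2, another methyltransferase gene, averaged 458 in KMS11, against 206 in OPM2.

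DSG2 was the one desmosomal cadherin above the brightness filter. The other 6 (DSG1, DSG3, DSG4, DSC1, DSC2 and DSC3) had intensities of 23.2 to 48.6 on the 8 arrays. They include the desmocollins, which pair with desmogleins in desmosomes. The 6 plaque genes were above the filter. Of these PKP2, JUP and DSP differed between lines, and PKP1, PKP3 and PKP4 did not pass, against 75.7% of all tested genes that did. Plakophilin 2, encoded by PKP2, was highest in OPM2 (2868), the line with the lowest DSG2, against 1669 in KMS11, 1492 in KMS34 and 972 in KMS18. Plakoglobin, encoded by JUP, averaged 897 in KMS11, 606 in OPM2, 457 in KMS34 and 278 in KMS18. The desmoplakin gene DSP averaged 239 in KMS11, against 48.7 to 50.02 in the other lines, close to the brightness limit of 46.7. With the knockdown 0 of 6 tested desmosome genes passed (limma) and 0 had an unadjusted p under 0.05, with PKP2 at 0.08 and DSP at -0.11. The adhesion gene NCAM1 averaged 462 in OPM2, against 149 in KMS34, 68.4 in KMS18 and 53.6 in KMS11.

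**Figure D5:**
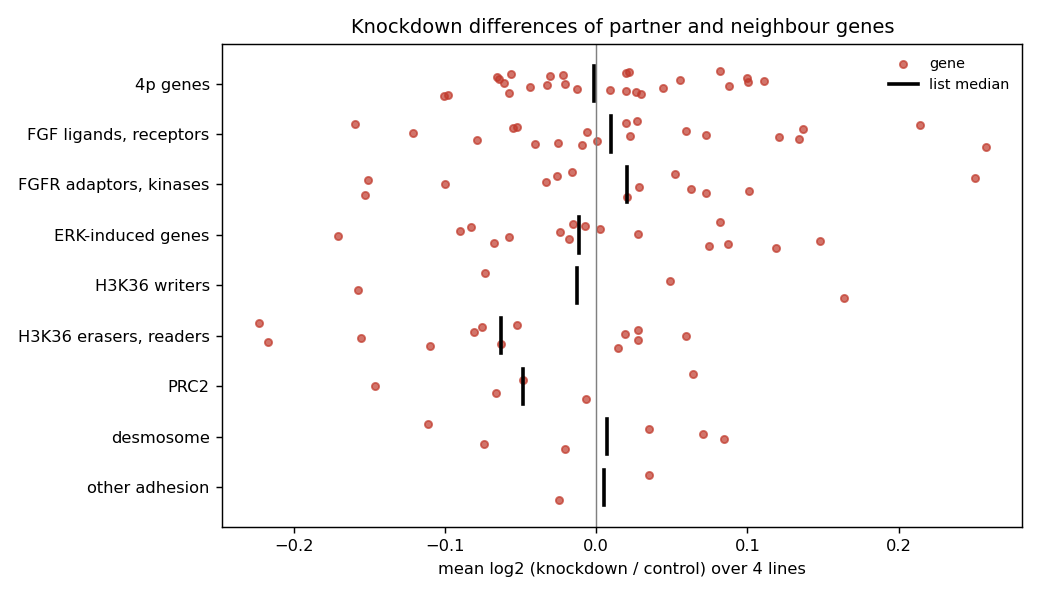
Mean log2 ratio of knockdown over control (x axis) for each tested gene of 9 lists of partners and neighbours (rows), with the list median as a black bar. The points lie within 0.26 of 0 on either side, and 0 passed limma's threshold.

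In all 9 lists, 104 tested genes gave 0 calls for the knockdown (limma), with 5 higher and 9 lower at an unadjusted p under 0.05, or 13.5% against 8.41% of all tested genes. Their median log2 difference was -0.009, and 12 were lower and 7 higher in 4 of 4 lines, against 8.76% and 8.29% of all tested genes.

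The genes whose pattern over the 8 arrays was most like that of each gene were found by Pearson's r on log2 values. Arrays of a line form a pair, so 8 arrays hold only 4 lines, and the genes were picked from 11109 for this likeness. For FGFR3 these were TMTC1 (r = 0.993), a gene for an O-mannosyltransferase, the N-acetylglucosamine kinase gene NAGK (0.988) and the circadian transcription factor gene CLOCK (0.987). TMTC1 averaged 373 in KMS11, 116 in OPM2, 95.3 in KMS18 and 50.4 in KMS34. For DSG2 they were TAPBPL (0.996), a gene related to the peptide-loading factor tapasin, MAP9 (0.994) and ZNF480 (0.993), and TAPBPL averaged 312 in KMS11, 308 in KMS18 and 312 in KMS34, against 107 in OPM2. For NSD2 they were ZNF646 (0.960), the Mediator subunit gene MED20 (0.959) and SMAD4 (0.954), with knockdown differences of -0.13, -0.14 and -0.11 that did not pass.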

How the data were processed

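RNA of 4 knockdown and 4 control cultures was hybridised to Affymetrix Human Gene 2.0 ST arrays. The values deposited by the authors are intensity on a linear scale, for each row and array. GeneSpring was the analysis software per the series' design text. How background and normalization were handled is not given in the sources used here, so the unit was judged from the values (array medians 49.3 to 53.5), and a shift shared by most genes could have been scaled away.

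Of 44629 rows 15835 had 1 symbol in the platform annotation, 0 several and 28794 none. Symbols were checked by gene identifier against RefSeq (GRCh38.p14; 15835 matched, 0 changed), which also gave the gene order and the start regions. A gene with several rows was represented by the brightest, and genes with a mean under the 25th percentile (intensity 46.7) were left out. Log2 values of the deposited intensity were fitted with limma 3.58.1 in R 4.3.3 (lmFit, eBayes) with cell line and condition as terms. The threshold was 0.05 after Benjamini-Hochberg adjustment over 11109 genes, and for pairs of lines over all genes and 6 pairs. The line pairs the arrays per the labels: deviations from the group mean correlated at 0.925 to 0.932 between arrays of a line, and at -0.135 at most between lines. Taking deviations from the mean by itself pushes the values between lines below 0, so only the values within a line bear on the pairing. The fit was tested on simulated data.

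The 3 genes and the lists were chosen with earlier results of these data known. Named genes were up to 6 per list by knockdown call or size, up to 4 per list by range between lines, GLO1, and the 3 genes most like each member. SCARNA22, DSG2-AS1, GAK and dim list members were named outside this rule. The alternatives were other scaling, filters, rows and spread estimates, leaving out each line, and no line block. The 8 arrays limit the precision.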

Additional observations from a re-analysis of the deposited data

Results flagged for a closer look

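In groups of 4, single values were checked for a gap from the others larger than Dixon's limit. Of 74 groups checked 5 held a value past it. A rate of 1 in 20 would give about 3.7. Many of the genes were picked from these data by the size of their differences, so that rate need not apply.

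FGFR3 had a log2 knockdown difference of -0.2548 in KMS34, against -0.102 to -0.0817 in the other lines. The adaptor gene SOS1, which links receptors to RAS, had one of 0.2796 in OPM2, against -0.0110 to 0.0198 in the other lines.

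DSG2 stood apart in OPM2 in both conditions, with an intensity of 193.6 among the knockdown arrays, against 527 to 593 in the other lines, and 209.9 among the control arrays, against 505 to 560. LETM1 stood apart in KMS34 among the knockdown arrays, at 1096.3, against 178 to 227 in the other lines. Among the control arrays it was also far higher in KMS34, at 1139 against 181 to 254, though that gap was not flagged.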

How the results depend on the processing

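The knockdown differences of NSD2 and FGFR3 kept their sign and missed the threshold under each of 12 alternatives. Without 1 line at a time NSD2 ranged from -0.20 to -0.14, FGFR3 from -0.15 to -0.09 and DSG2 from -0.04 to 0.04, DSG2 turning below 0 without KMS11 (-0.0436) and without KMS34 (-0.0191). SCARNA22 turned to 0.0549 without OPM2 and LETM1 to 0.0104 without KMS18, none of these past the threshold. Without the cell line block (no replicate block), the pairing by line was lost and the 3 genes and GLO1 had adjusted p = 1 (limma) at unchanged differences. The number of genes called for the knockdown over all genes was 13, and 4 with no filter, 1 over all rows, 29 with trend and robust settings, 0 without the replicate block and 1 to 4 without 1 line (2 without KMS34). List members called numbered 0 under each alternative.

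The range between lines passed for FGFR3 under each alternative with a test, with 0.53 to 1.26 log2 units without 1 line. For DSG2 it was 0.132 to 1.488 without 1 line and 1.61 in knockdown arrays alone, and for NSD2 0.135 to 0.334, with 0.216 without OPM2. Scaling decided pairs of near levels. With quantile normalization DSG2 of KMS11 minus KMS18 was -0.14, of KMS18 minus KMS34 0.26 (adjusted p = 0.0427), and NSD2 of KMS11 minus OPM2 -0.27 (0.0293). With array medians centred NSD2 of KMS11 minus KMS18 was 0.31 (0.0140), of KMS18 minus KMS34 -0.29 (0.0191) and of KMS11 minus KMS34 0.0171. The cause of these shifts was not tested. Without detection calls, whether a dim row measures RNA cannot be said.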
